A study of Mus musculus with 5 samples.

Results

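The comparison described here sets ordinary basal cells against luminal cells of the mouse mammary gland. Its members are the 3 libraries that the labels name as basal (Basal replicates 1 and 2) or luminal (a single library), out of 5 in the series. The 2 remaining libraries, of luminal-derived basal cells (LdBC), carry a luminal lineage label in the basal gate and are not compared. They enter the estimate of the spread, the mean level by which genes were kept for testing, and counts made across all 5 libraries. The series title names hormone-induced luminal-derived basal cells as its subject, and basal against luminal is the contrast between its ordinary cell layers.

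Basal cells were sorted as lineage-negative, CD24+, CD29hi and TdTomato+, and luminal cells as lineage-negative, CD24+, CD29low and GFP+. All mice were adult virgins that had lost their ovaries and then carried hormone pellets for 14 days, so both layers were seen under that treatment and no untreated gland was used. About 50 cells went into each library, whose RNA was amplified by a Smart-seq2 protocol adapted to small tissue samples (Geo-seq) and sequenced on an Illumina HiSeq instrument. The labels do not give the promoters that drive the fluorescent reporters, the hormones in the pellets, or the genotype and age in weeks. Nor do they say whether the libraries come from separate animals. What the p-values weigh is thus the scatter among these libraries alone, and it could be technical.

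The mammary epithelium is a bilayer. Luminal cells line the lumen, are joined by tight junctions, and include cells that sense estrogen, progesterone and prolactin as well as the precursors of milk-secreting cells. Basal cells lie outside them on the basement membrane, contract around the ducts and alveoli through smooth muscle proteins, and are governed by transcription factors such as p63 and Slug.

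Values are FPKM, fragments scaled to transcript length and to the depth of the library, which allow levels to be compared between genes. Log2 differences are basal minus luminal of log2(FPKM + 1), a scale on which changes of low genes come out too small. A gene is called where limma with Benjamini-Hochberg adjustment over all 10626 tested genes gives an adjusted p under 0.05. The 1 luminal library is treated as if it varied as the pairs do. A second, untested description counts genes whose 2 basal values both lie at least 4-fold (2 on the log2 scale) from the luminal value.

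The luminal library stood apart in makeup. Basal replicates 1 and 2 had 10979 and 10834 genes above 0, against 8041 in the luminal library. FPKM summed to 457513 and 405093 in the basal libraries, against 813063 in the luminal one. In the basal libraries 2 and 5 genes were listed at 0 that reached 10 FPKM in each of the other 4, against 162 such genes in the luminal library. Among 125 genes of the proteasome, RNA polymerase II, translation initiation and splicing, 1 and 0 were at 0 in the basal libraries and 5 in the luminal one. A luminal value of 0 is for this reason given only as "listed at 0", with no fold change. In these bulk samples fewer cells of a type and less RNA per cell cannot be told apart.

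Limma called 343 genes higher in basal cells (3.23% of those tested) and 540 lower (5.08%). Call counts of the gene lists below are to be read against these shares. Both basal values lay at least 4-fold above the luminal value in 1683 genes (15.8%) and at least 4-fold below it in 1792 (16.9%). The luminal library was listed at 0 in 1132 of those 1683, and both basal libraries were in 221 of those 1792. By the same measure of distance, the 2 basal libraries were at least 4-fold apart from each other in 534 genes (5.03%). The median difference over all tested genes was -0.13, and it was -0.86 over the 7068 genes above 0 in all 3 libraries. The luminal library was listed at 0 in 197 of the 343 genes called higher, and both basal libraries were in 132 of the 540 called lower. Of the calls, 38.8% were higher in basal cells. After quantile normalization the share was 54.4%, and after median-of-ratios scaling it was 61.8%. Leaving out any single basal or LdBC library left 0 genes called by limma, with 2245 to 4887 at an unadjusted p under 0.05. Median-of-ratios scaling shifted the median over all genes to 0.37. Transcript length moved with the result as well: over 3 length classes of equal size, the median difference was -0.50 in the shortest and 0.19 in the longest, with 8.42% and 2.32% called lower. The part of length in the differences was not tested.

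**Figure D1:**
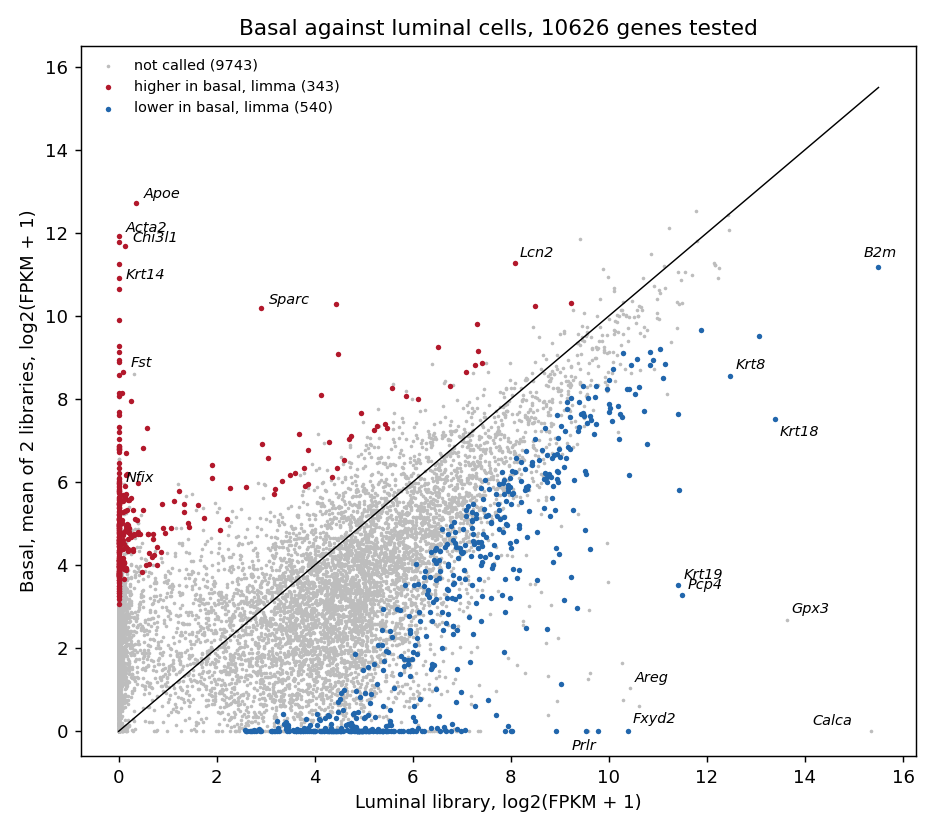
Mean of the 2 basal libraries (vertical axis) against the luminal library (horizontal axis), both as log2(FPKM + 1), for the 10626 genes tested; red points are the 343 genes called higher in basal cells and blue points the 540 called lower, and the line marks equal values. Many points lie on the axes, where 1 of the groups is listed at 0.

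The sorted proteins come first, as a check of the gates and not as findings. Itgb1, which encodes CD29, had 77.3 and 93.4 FPKM in Basal replicates 1 and 2 and 22.9 FPKM in the luminal library. Cd24a had 109 and 95.2 FPKM in the basal libraries and 488 FPKM in the luminal one. The markers named for the 2 layers followed the labels. The basal markers Acta2 and Krt14 were abundant in both basal libraries and listed at 0 in the luminal library. Krt8 was lower in basal cells, and Prlr was listed at 0 in both of them.

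Keratins come next, as the filament proteins by which the layers are usually told apart. Krt14, a keratin of basal epithelium (chromosome 11, 100203162 to 100207548, minus strand, GRCm38), had 2682 and 2206 FPKM in basal cells and was listed at 0 in luminal cells (limma with Benjamini-Hochberg adjusted p = 0.0154). Krt17 had 4258 and 2896 FPKM in basal cells and Krt5 had 206 and 201 FPKM, and both were listed at 0 in the luminal library. All 3 were called. Krt15, another basal keratin, had 149 and 98.5 FPKM in basal cells against 17.2 FPKM in luminal cells and was not called (limma with Benjamini-Hochberg adjusted p = 0.339). Among keratins of simple epithelia, Krt18 (chromosome 15, 102028180 to 102032027, plus strand) had 194 and 172 FPKM in basal cells against 10755 FPKM in luminal cells. Its log2 difference was -5.87 with a standard error (SE) of 0.17 (limma with Benjamini-Hochberg adjusted p = 0.0190). Krt8, its filament partner, had 441 and 324 FPKM against 5708 FPKM and was called lower (log2 difference -3.91, SE 0.28). Krt19 had 19.8 and 5.25 FPKM against 2735 FPKM, and was called lower too. Krt7 had 5.97 and 0 FPKM against 780 FPKM and was not called (limma with Benjamini-Hochberg adjusted p = 0.0508). The simple keratins were thus detected in both basal libraries, with the exception of Krt7 in replicate 2, whereas 3 of these 4 basal keratins were listed at 0 in the luminal library.

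Basal identity genes were called higher in 15 of 37 tested members and lower in 0. Both basal values lay 4-fold above luminal in 32 of the 37, with a median difference of 4.69. The luminal library was listed at 0 for 22 of the 37. Among transcription factors, Snai2, which encodes Slug, had 99.2 and 121 FPKM in basal cells and was listed at 0 in luminal cells, and it was called. Sox10, a factor of neural crest and mammary progenitors, had 22.7 and 29.7 FPKM in basal cells against 0.352 FPKM in luminal cells and was called (log2 difference 4.32, SE 0.41). Trp63, which encodes p63, had 24.4 and 20.2 FPKM and was listed at 0 in luminal cells, yet it was not called (limma with Benjamini-Hochberg adjusted p = 0.083).

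Secreted and membrane proteins were among the most abundant basal transcripts. Apoe, a lipid carrier (chromosome 7, 19696109 to 19699188, minus strand), was the most abundant basal transcript at 7198 and 6393 FPKM, against 0.280 FPKM in luminal cells (log2 difference 12.37, SE 0.55). Chi3l1, a chitinase-like secreted glycoprotein, had 3497 and 3053 FPKM against 0.0989 FPKM. Its log2 difference was 11.54 with an SE of 0.18 (limma with Benjamini-Hochberg adjusted p = 0.00935). Both were abundant in each basal library and near absence in the luminal one. The matrix protein Sparc had 1208 and 1127 FPKM against 6.52 FPKM, and Mgp, an inhibitor of calcification, had 1033 and 895 FPKM and was listed at 0 in luminal cells. Gja1, the gap junction protein connexin 43, had 231 and 351 FPKM against 0.0507 FPKM, and Pdpn, a membrane mucin-type glycoprotein, had 218 and 274 FPKM against 0.188 FPKM. These 4 were called. Lgals1, a galectin, had 458 and 328 FPKM against 0.245 FPKM and was not called (limma with Benjamini-Hochberg adjusted p = 0.102). The sole member with both basal values 4-fold below luminal was Nrtn, a ligand of the GDNF family, at 4.84 and 3.23 FPKM against 34.9 FPKM, and it was not called.

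The remaining genes that the size rule named as higher in basal cells have other roles. Odc1, the first enzyme of polyamine synthesis, had 187 and 133 FPKM in basal cells against 0.502 FPKM in luminal cells. Rcn3, a calcium-binding protein of the secretory pathway, had 125 and 83.5 FPKM against 0.118 FPKM. Mrto4, a ribosome assembly factor, had 103 and 120 FPKM against 0.403 FPKM, and Ckb, a creatine kinase, had 57.0 and 89.0 FPKM against 0.115 FPKM. All 4 were called, and in each the basal libraries lay together, far above the luminal library.

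The contractile apparatus was called higher in 11 of 30 tested members and lower in 0, and 19 of the 30 were 4-fold higher in both basal libraries (median 2.84). Acta2, smooth muscle actin (chromosome 19, 34241090 to 34255590, minus strand), had 3941 and 3800 FPKM in basal cells and was listed at 0 in luminal cells (limma with Benjamini-Hochberg adjusted p = 0.0349). Tagln, an actin-bundling protein, had 1953 and 1878 FPKM, and the myosin light chain Myl9 had 1699 and 1511 FPKM, both listed at 0 in luminal cells and called. The filament proteins differed in whether the luminal library carried them. Tpm2 had 1405 and 1125 FPKM against 20.7 FPKM (log2 difference 5.86, SE 0.55), whereas the broadly expressed tropomyosin Tpm1 had 617 and 606 FPKM against 90.1 FPKM (log2 difference 2.75, SE 0.27). Cnn1, calponin, had 440 and 517 FPKM and was listed at 0 in luminal cells, while its relative Cnn2 had 109 and 108 FPKM against 13.6 FPKM. All 4 were called.

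The kinase Mylk, which switches myosin on, had 78.8 and 97.3 FPKM and was listed at 0 in luminal cells. Vcl, the adhesion protein vinculin, had 48.3 and 44.5 FPKM against 0.162 FPKM, and Cald1 had 126 and 113 FPKM against 6.57 FPKM. These were called, as was Smtn. Actg2 (278 and 279 FPKM) and Myh11 (58.0 and 43.2 FPKM) were listed at 0 in the luminal library and were not called (limma with Benjamini-Hochberg adjusted p = 0.106 and 0.0753). Oxtr, the oxytocin receptor, had 1.54 and 5.36 FPKM in basal cells and 3.51 FPKM in luminal cells, values that overlap. Srf had 6.35 and 8.91 FPKM against 2.42 FPKM, and its cofactor Mkl1 had 14.5 and 7.08 FPKM against 12.2 FPKM, and neither was called. Cav2 was the sole member with both basal values 4-fold below luminal, at 43.6 and 41.3 FPKM against 189 FPKM, and it was not called.

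Contractile genes are known to be driven through the CArG box, the site of serum response factor, and 2 promoters of called members are shown because they hold it. Promoter windows run from 250 bases before to 50 after the start site, from RefSeq on GRCm38.p6, and 25 of the 30 tested contractile members matched. A CArG box stood in 4 of their 30 promoters (13.3%), those of Myl9, Cnn2, Vcl and Srf. It stood in 1.63% of all 32851 promoters of this length. In the tight junction and polarity list, described below, it stood in 3 of 24 promoters (12.5%). The shares were 3.45% in basal identity and 3.57% in luminal identity promoters. Counted by gene, it stood in 4 of 25 contractile members, 1 of 16 junction members and 1.81% of all genes with promoters. The box reads the same on both strands. Capitals mark the box in Myl9 (chr2:156775214-156775513, plus strand) and in Vcl (chr14:20929148-20929447, plus strand). A match is a description of the letters in this window and not a bound site.
Myl9: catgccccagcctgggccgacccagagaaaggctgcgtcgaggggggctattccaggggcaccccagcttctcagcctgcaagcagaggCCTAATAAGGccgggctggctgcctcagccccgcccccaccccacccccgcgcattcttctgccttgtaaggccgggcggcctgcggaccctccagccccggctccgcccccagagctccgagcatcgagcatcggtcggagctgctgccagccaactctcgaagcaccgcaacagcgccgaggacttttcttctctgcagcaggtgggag
Vcl: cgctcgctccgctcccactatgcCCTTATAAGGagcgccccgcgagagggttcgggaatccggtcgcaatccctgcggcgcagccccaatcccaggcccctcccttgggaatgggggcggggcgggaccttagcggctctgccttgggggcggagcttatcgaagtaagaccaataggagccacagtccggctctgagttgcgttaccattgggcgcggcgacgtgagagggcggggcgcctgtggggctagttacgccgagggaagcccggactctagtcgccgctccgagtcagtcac

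Basement membrane and hemidesmosome genes had 1 of 24 tested members called higher (Sparc) and 0 lower, with 10 of 24 4-fold higher in both basal libraries and a median of 1.94. The 1 call in 24 is a share near the 3.23% of all genes. The collagen IV chain Col4a1 had 47.9 and 52.7 FPKM in basal cells against 0.0689 FPKM in luminal cells (limma with Benjamini-Hochberg adjusted p = 0.0503), and Col4a2 had 36.8 and 38.8 FPKM against 7.52 FPKM. Col17a1, a hemidesmosome collagen, had 19.8 and 20.9 FPKM and Lama3, a laminin chain, had 17.7 and 15.9 FPKM, and both were listed at 0 in luminal cells. None of these passed. Lamb3 (82.0 and 88.5 FPKM against 14.4 FPKM) lay on the basal side and was not called. Both basal values lay below the luminal one in 5 of the 24. Lama5 was the sole member with both 4-fold below, at 6.09 and 4.58 FPKM in basal cells and 28.5 FPKM in luminal cells, and it was not called. The integrin Itga6, used elsewhere to sort basal cells, had 66.8 and 57.8 FPKM against 25.9 FPKM and was not called.

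**Figure D2:**
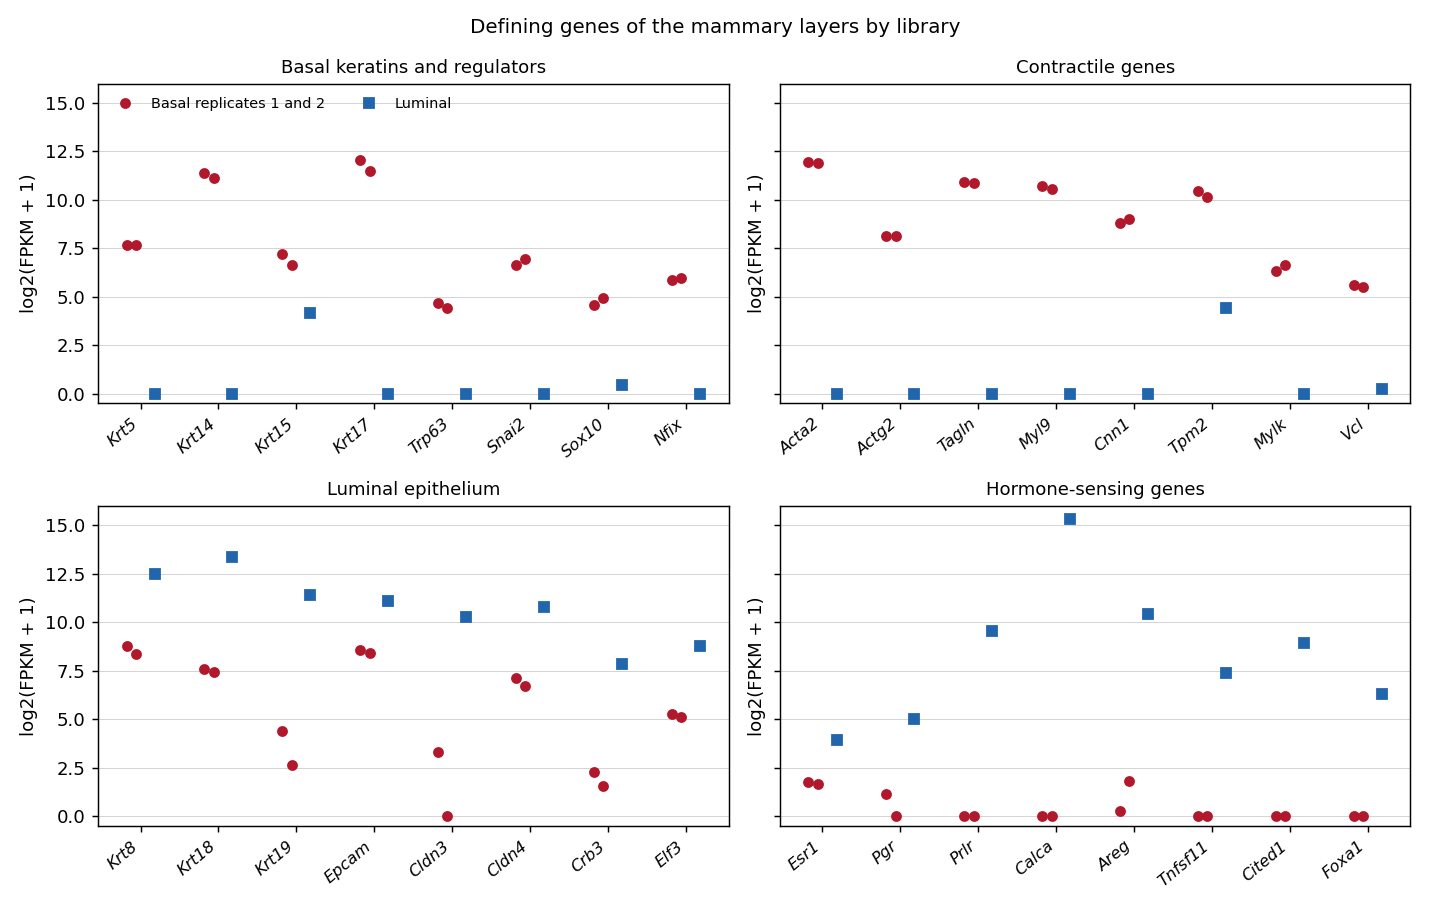
Log2(FPKM + 1) of 32 genes in the 2 basal libraries (red circles) and the luminal library (blue squares), in panels for basal keratins and regulators, contractile genes, luminal epithelium and hormone-sensing genes. Among the genes shown, basal circles lie above the luminal square in the upper panels and below it in the lower panels. The genes were selected for display, and list members on the other side, such as Cav2, Lcn2, Igfbp5 and Ramp3, are not shown.

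Luminal identity genes were called lower in basal cells in 13 of 33 tested members and higher in 1. Both basal values were 4-fold below luminal in 26 of the 33, and the median was -3.62. Cd24a, a sorted protein, is among the 13. After median-of-ratios scaling 7 were called lower. The adhesion molecule Epcam had 387 and 337 FPKM in basal cells against 2215 FPKM in luminal cells (log2 difference -2.61, SE 0.22) and was called. Elf3, an epithelial transcription factor, had 37.2 and 33.3 FPKM against 443 FPKM, and Wfdc2, a secreted inhibitor-like protein, had 24.7 and 15.9 FPKM against 784 FPKM. Both were called. Ly6a, which encodes Sca-1, had 3.84 and 0 FPKM against 519 FPKM and was called, with replicate 2 at 0. Gata3, a luminal master regulator, lay closer between the layers, with 28.9 and 54.8 FPKM against 110 FPKM, and was not called (limma with Benjamini-Hochberg adjusted p = 0.175). E-cadherin, encoded by Cdh1, had 24.8 and 34.9 FPKM against 37.0 FPKM and was not called, with a difference whose sign turns after either rescaling. The member called higher was Lcn2, a secreted iron-siderophore carrier, at 2503 and 2435 FPKM against 270 FPKM (log2 difference 3.19, SE 0.23).

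Genes of tight junctions and apical polarity were called lower in 6 of 27 tested members and higher in 0, with 11 of 27 4-fold lower and a median of -1.84. Cgn, the junction adaptor cingulin, had 0.240 and 0.0433 FPKM in basal cells against 110 FPKM in luminal cells (log2 difference -6.61, SE 0.42). Marveld2, tricellulin, had 0.582 and 0.0625 FPKM against 92.0 FPKM, and Ocln, occludin, had 4.25 and 0.896 FPKM against 143 FPKM. These junction proteins were near absence in basal cells and were called. The polarity protein gene Crb3 had 3.81 and 1.90 FPKM against 233 FPKM (log2 difference -5.97, SE 0.51). The claudin Cldn4 kept a substantial basal level, at 140 and 103 FPKM against 1761 FPKM, and was called, as was the lipolysis-stimulated receptor gene Lsr. Cldn3 (8.86 and 0 FPKM against 1228 FPKM) and Cldn7 (12.5 and 0.699 FPKM against 498 FPKM) were not called, and in both the basal libraries differed from each other. The scaffold gene Tjp1 had 8.04 and 7.21 FPKM against 16.9 FPKM and was not called.

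The word CAGGTG is the E-box bound by Slug and related repressors, and 4 promoters of called luminal and junction genes are shown because they hold it on one strand or the other (CAGGTG or CACCTG, in capitals). Of the 27 tested junction members 16 matched a RefSeq promoter, and 16 of their 24 promoters (66.7%) held the word. Of the 33 tested luminal identity members 22 matched, and 16 of their 28 promoters (57.1%) held it. The share was 31% in the 29 promoters of basal identity members, 20% in the contractile ones and 20.2% in all 32851 promoters. Among all genes called lower it was 23.8%, and among those called higher it was 16%. Windows of the same gene can overlap and are counted apart, as with 2 of Crb3. Counted by gene, the word stood in 12 of 16 junction members, 15 of 22 luminal identity members and 22.6% of all genes with promoters. By the same count it stood in 9 of 21 basal identity members (42.9%) and 6 of 25 contractile members (24%). The junction and luminal lists share members, among them Cldn3, Cldn4 and Cldn7. As for the CArG box, a match is not a bound site. The E-box words and the CArG box cannot overlap one another. The windows are those of Crb3 (chr17:57061951-57062250, plus strand), Epcam (chr17:87635729-87636028, plus strand), Cldn4 (chr5:134946885-134947184, minus strand) and Krt8 (chr15:102004293-102004592, minus strand), on GRCm38.p6. Crb3 holds 4 such words in this window, Epcam and Cldn4 hold 2 each, and Krt8 holds 1.
Crb3: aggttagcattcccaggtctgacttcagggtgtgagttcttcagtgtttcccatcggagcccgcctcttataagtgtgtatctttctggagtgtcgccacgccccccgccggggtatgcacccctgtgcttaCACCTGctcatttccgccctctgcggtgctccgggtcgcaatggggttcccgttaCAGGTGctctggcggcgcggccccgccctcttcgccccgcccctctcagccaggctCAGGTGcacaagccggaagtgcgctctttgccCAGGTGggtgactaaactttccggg
Epcam: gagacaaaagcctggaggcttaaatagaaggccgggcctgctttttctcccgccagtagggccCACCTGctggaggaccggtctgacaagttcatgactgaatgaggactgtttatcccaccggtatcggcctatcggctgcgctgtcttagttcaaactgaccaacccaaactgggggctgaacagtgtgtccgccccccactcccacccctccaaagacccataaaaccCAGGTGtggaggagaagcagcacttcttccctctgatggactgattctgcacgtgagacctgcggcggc
Cldn4: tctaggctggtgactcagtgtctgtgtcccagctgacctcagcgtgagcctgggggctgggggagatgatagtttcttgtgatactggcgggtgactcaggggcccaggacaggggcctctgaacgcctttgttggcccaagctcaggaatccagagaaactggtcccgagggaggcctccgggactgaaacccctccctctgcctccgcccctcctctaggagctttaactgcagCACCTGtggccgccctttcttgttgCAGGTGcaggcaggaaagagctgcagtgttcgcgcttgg
Krt8: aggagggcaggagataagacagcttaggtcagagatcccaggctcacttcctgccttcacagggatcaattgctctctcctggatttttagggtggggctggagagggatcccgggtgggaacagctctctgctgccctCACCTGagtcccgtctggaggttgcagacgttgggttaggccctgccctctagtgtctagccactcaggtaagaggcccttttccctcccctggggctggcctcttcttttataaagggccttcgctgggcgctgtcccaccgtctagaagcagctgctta

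Apical glycoproteins, transporters and secreted defence proteins were called lower in basal cells in 8 of 28 tested members and higher in 2, with Chi3l1 and Lcn2 as the members called higher. Both basal values were 4-fold lower in 14 of the 28 and the median was -2.06. The adhesion protein gene Ceacam1 had 10.6 and 12.9 FPKM in basal cells against 234 FPKM in luminal cells. Slc9a3r1, which anchors proteins under the apical membrane, had 1.56 and 2.09 FPKM against 119 FPKM (log2 difference -5.42, SE 0.35). The lung-type collectin gene Sftpd was above 0 in neither basal library and had 28.9 FPKM in luminal cells. These were called. The mucin Muc1 had 3.04 and 0 FPKM against 74.4 FPKM and the water channel gene Aqp5 was listed at 0 in both basal libraries against 70.7 FPKM, and neither was called. Clu differed between the basal libraries, at 118 and 0.224 FPKM, against 1018 FPKM in luminal cells.

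Hormone-sensing genes lay mostly on the luminal side. Of 27 tested members, 4 were called lower in basal cells and 1 higher, 17 were 4-fold lower, and the median was -3.68. The lower calls numbered 8 after quantile normalization and 1 after median-of-ratios scaling. Calca, which encodes calcitonin and its related peptide (chromosome 7, 114631478 to 114636357, minus strand), was above 0 in neither basal library and reached 41755 FPKM in luminal cells, but was not called (limma with Benjamini-Hochberg adjusted p = 0.0603). The prolactin receptor gene Prlr was above 0 in neither basal library and had 743 FPKM in luminal cells, and it was called (limma with Benjamini-Hochberg adjusted p = 0.0485). Fxyd2, a regulator of the sodium pump, and Cited1, a transcriptional coregulator of estrogen-responsive cells, were listed at 0 in basal cells, and both were called. In luminal cells Fxyd2 had 1341 FPKM and Cited1 had 482 FPKM. The ligands for neighbouring cells followed. Areg, amphiregulin, had 0.199 and 2.55 FPKM in basal cells against 1378 FPKM in luminal cells (limma with Benjamini-Hochberg adjusted p = 0.052). Tnfsf11, which encodes RANKL, was listed at 0 in both basal libraries against 164 FPKM, and Wnt4 had 0 and 0.763 FPKM against 12.0 FPKM. Neither was called.

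Of the receptors for ovarian hormones, Esr1 had 2.33 and 2.17 FPKM in basal cells against 14.3 FPKM in luminal cells, and Pgr had 1.24 and 0 FPKM against 31.2 FPKM, and neither was called. Foxa1, the cofactor of the estrogen receptor, was above 0 in neither basal library and had 78.7 FPKM in luminal cells. Igfbp5 was the member called higher, at 121 and 138 FPKM in basal cells against 25.1 FPKM in luminal cells. Ramp3, a calcitonin-family coreceptor, lay on the basal side too, at 28.3 and 16.2 FPKM with the luminal library listed at 0, and was not called.

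Other luminal genes named by size were mixed in their calls. Gpx3, a secreted glutathione peroxidase, had 10.3 and 2.68 FPKM in basal cells against 12671 FPKM in luminal cells and yet it was not called (limma with Benjamini-Hochberg adjusted p = 0.0805). Pcp4, a calmodulin-binding peptide, had 9.94 and 7.52 FPKM against 2889 FPKM and was called (log2 difference -8.23, SE 0.45). Acot1, an acyl-CoA thioesterase, had 4.14 and 4.86 FPKM against 428 FPKM and was called. Haptoglobin, encoded by Hp, was listed at 0 in basal cells and had 883 FPKM in luminal cells, and it was called. Defb1 (0.559 and 2.71 FPKM against 764 FPKM) and Arg2 (2.52 and 1.56 FPKM against 277 FPKM) were not called. Agtr1a, the angiotensin receptor gene, was listed at 0 in basal cells and had 765 FPKM in luminal cells without being called.

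Luminal progenitor and alveolar regulators lay on both sides, with both basal values above the luminal one in 15 tested members and below it in 13. Of 31 tested members 3 were called higher in basal cells (Lcn2, the lipopolysaccharide-binding protein gene Lbp and the helix-loop-helix inhibitor Id2) and 0 lower, with a median of 0.21. The median was 0.93 after quantile normalization and 1.01 after median-of-ratios scaling, with 4 called higher and 0 lower in each. Over all tested genes the medians were then 0.08 and 0.37. Elf5, the alveolar master regulator, was above 0 in neither basal library and had 9.94 FPKM in luminal cells, and Kit was listed at 0 in all 3. Id2 had 99.7 and 89.5 FPKM in basal cells against 7.32 FPKM in luminal cells. Milk genes were called lower in 2 of 23 tested members, Expi (303 and 128 FPKM against 2724 FPKM) and the folate receptor gene Folr1 (2.77 and 0 FPKM against 126 FPKM), and the median was 0.00. The caseins overlapped between the layers and differed between the basal libraries. Csn2 had 731 and 11.8 FPKM in basal cells and 78.2 FPKM in luminal cells, and Csn1s1 had 99.3 and 0 FPKM against 28.1 FPKM.

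**Figure D3:**
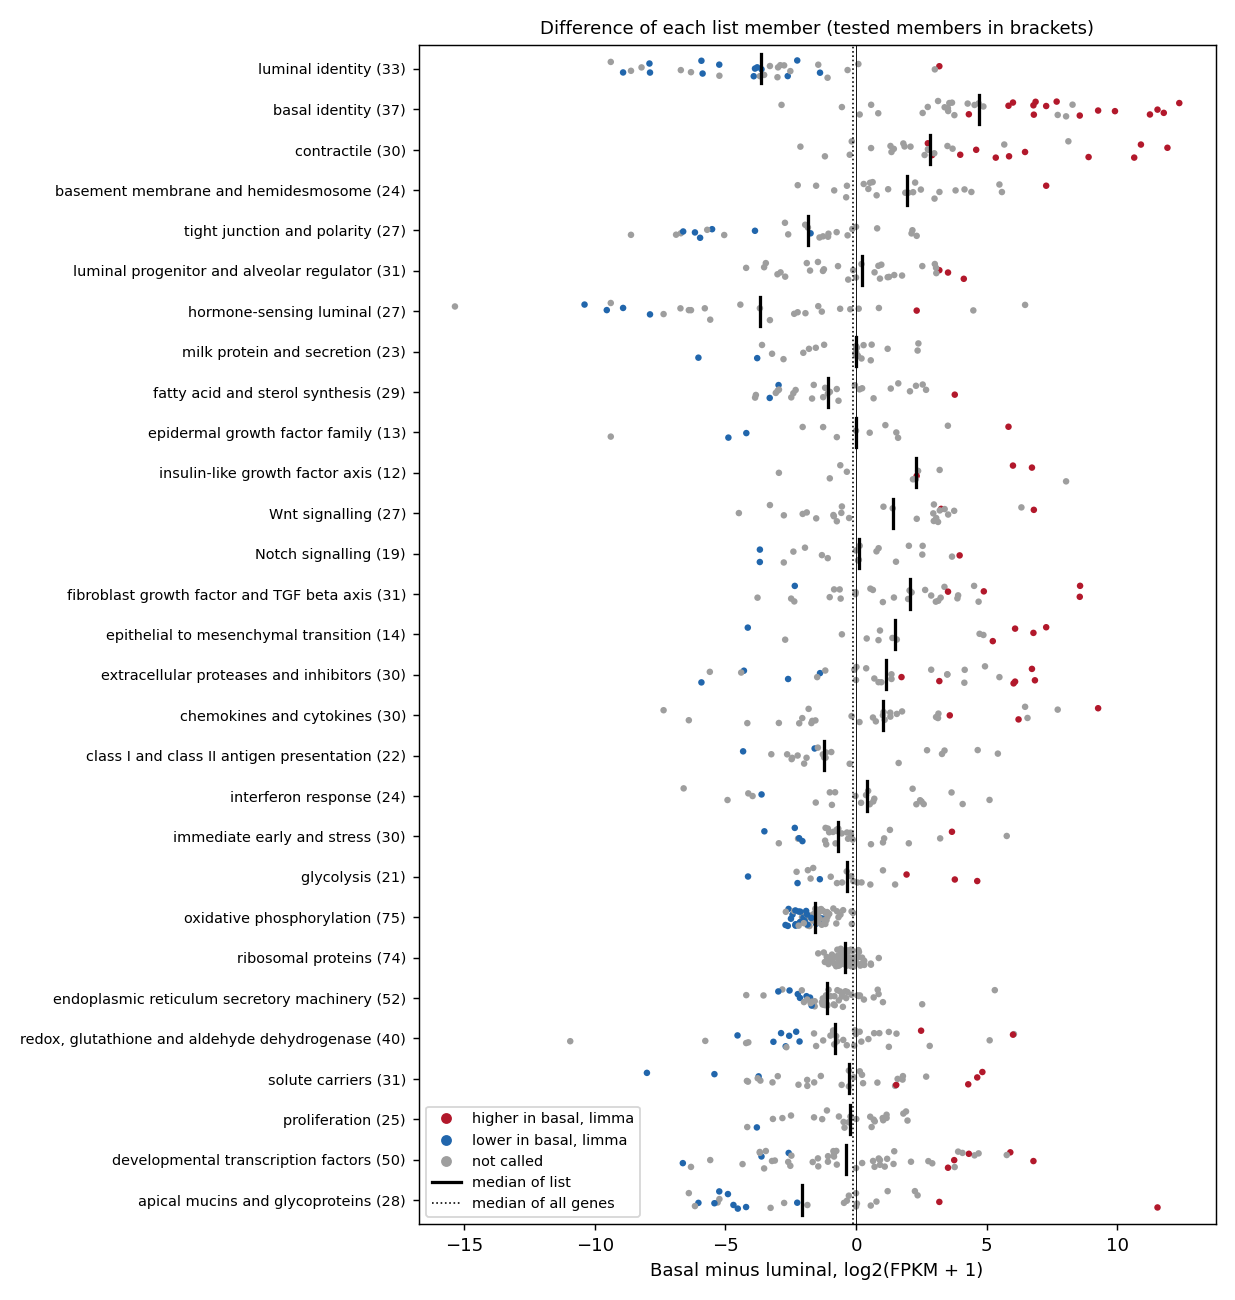
Basal minus luminal difference on the log2(FPKM + 1) scale for every tested member of 29 gene lists; red members were called higher in basal cells and blue ones lower, bars are list medians and the dotted line is the median of all genes (-0.13). The ribosomal, immediate early, glycolysis and solute carrier medians are below 0 as deposited and above 0 after quantile normalization and after median-of-ratios scaling. The redox and developmental factor medians turn above 0 and the Notch median below 0 after quantile normalization, and the proliferation median turns above 0 after median-of-ratios scaling.

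In the epidermal growth factor family 1 of 13 tested members was called higher in basal cells and 2 lower, with a median of 0.00. The ligand Nrg1 had 57.4 and 54.8 FPKM in basal cells and was listed at 0 in luminal cells, and it was called. The related ligand Nrg4 had 0.0569 and 0.521 FPKM in basal cells against 36.5 FPKM in luminal cells and was called lower. Erbb2, the coreceptor for such ligands, had 2.16 and 2.41 FPKM against 59.2 FPKM and was called lower (log2 difference -4.20, SE 0.55). Egfr, the receptor for amphiregulin, had 10.6 and 10.2 FPKM in basal cells and was listed at 0 in luminal cells, and it was not called (limma with Benjamini-Hochberg adjusted p = 0.0927).

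The insulin-like growth factor axis leaned to the basal side, with 3 of 12 tested members called higher, 0 lower and a median of 2.31. The binding proteins carried it. Igfbp2 had 70.9 and 72.5 FPKM in basal cells against 0.131 FPKM in luminal cells and was called, as was Igfbp5. Igfbp3 had 226 and 304 FPKM, was listed at 0 in luminal cells and was not called. Htra1, a protease that cleaves such binding proteins, had 97.9 and 113 FPKM, was listed at 0 in luminal cells and was called. The adaptor Irs1 was on the luminal side, at 0 and 0.475 FPKM against 8.40 FPKM, and not called.

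Wnt signalling had 2 of 27 tested members called higher in basal cells and 0 lower, with 13 4-fold higher, 3 4-fold lower and a median of 1.41. The ligands split. Wnt11 had 9.43 and 7.78 FPKM in basal cells and was called, and Wnt10a had 95.3 and 66.1 FPKM and was not, both listed at 0 in luminal cells. Wnt5b had 6.46 and 5.86 FPKM in basal cells against 47.5 FPKM in luminal cells, and Wnt7b had 0.0308 and 0 FPKM against 21.7 FPKM, and neither was called. The receptors Lgr5 (7.62 and 20.2 FPKM) and Lgr6 (8.60 and 10.5 FPKM), which bind R-spondins, were listed at 0 in luminal cells and were not called. Wif1, a secreted Wnt inhibitor, had 95.4 and 129 FPKM, was listed at 0 in luminal cells and was called.

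Notch signalling had 1 of 19 tested members called higher in basal cells and 2 lower, with a median of 0.11 that falls to -0.14 after quantile normalization. Over all tested genes the shares were 3.23% higher and 5.08% lower. The ligands were on the basal side without passing. Jag1 had 38.9 and 61.4 FPKM in basal cells against 16.3 FPKM in luminal cells, and Dll1 had 17.0 and 8.87 FPKM against 0.0456 FPKM. The target Hes1 had 14.9 and 7.31 FPKM in basal cells against 146 FPKM in luminal cells and was called lower (log2 difference -3.68, SE 0.50). Adam10, the protease that cleaves Notch receptors, had 9.37 and 7.93 FPKM against 122 FPKM and was called lower. The coactivator gene Maml2 (16.2 and 13.2 FPKM, listed at 0 in luminal cells) was called higher, while the receptor gene Notch1 (3.86 and 3.31 FPKM against 0.127 FPKM) was not called.

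In the fibroblast growth factor and TGF beta axis 4 of 31 tested members were called higher in basal cells and 1 lower, with a median of 2.05. The activin trap Fst had 376 and 433 FPKM in basal cells against 0.0689 FPKM in luminal cells. Its log2 difference was 8.56 with an SE of 0.25 (limma with Benjamini-Hochberg adjusted p = 0.0190). The activin subunits themselves split, with Inhba at 5.79 and 4.76 FPKM and listed at 0 in luminal cells, and Inhbb listed at 0 in both basal libraries and at 12.6 FPKM in luminal cells. Neither subunit was called. The matricellular pair Ctgf and Cyr61 went opposite ways, and both were called. Ctgf had 360 and 402 FPKM in basal cells and was listed at 0 in luminal cells, while Cyr61 had 272 and 192 FPKM in basal cells against 1164 FPKM in luminal cells. Fgf21, an endocrine factor, had 31.3 and 26.3 FPKM, was listed at 0 in luminal cells and was called.

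**Figure D4:**
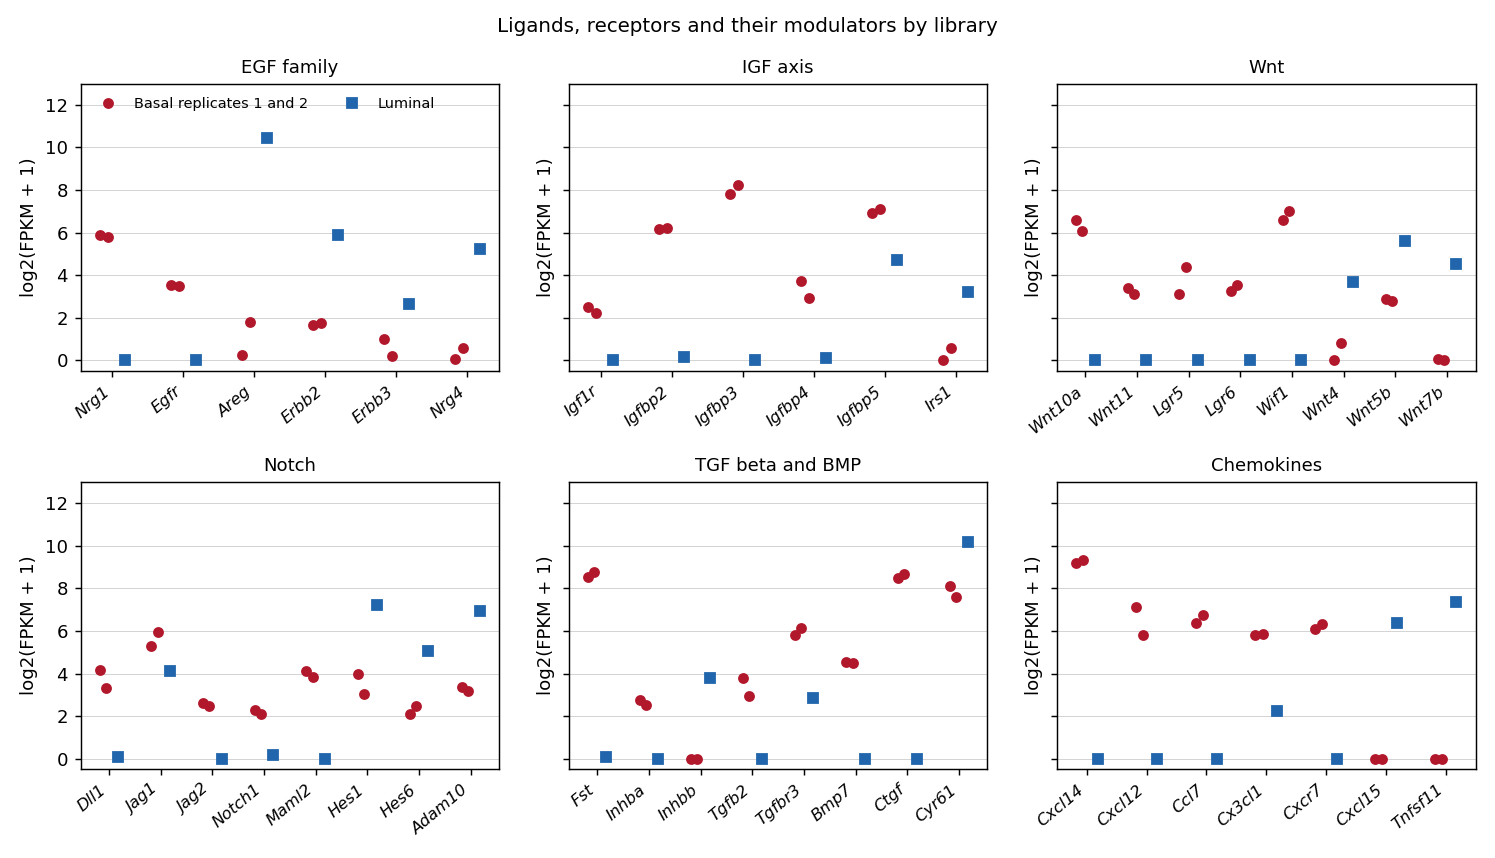
Log2(FPKM + 1) of ligands, receptors and their modulators in the 2 basal libraries (red circles) and the luminal library (blue squares), in 6 panels by pathway. In each panel some genes lie on the basal side and others on the luminal side, such as Nrg1 (57.4 and 54.8 FPKM, with luminal listed at 0) and Nrg4 (0.0569 and 0.521 FPKM against 36.5 FPKM).

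Chemokines and cytokines had 3 of 30 tested members called higher in basal cells and 0 lower, with a median of 1.04. Cxcl14 had 581 and 650 FPKM in basal cells and was listed at 0 in luminal cells (limma with Benjamini-Hochberg adjusted p = 0.0271). The membrane-bound chemokine Cx3cl1 had 55.7 and 57.9 FPKM against 3.80 FPKM, and the scavenging receptor Cxcr7 had 67.8 and 79.7 FPKM and was listed at 0 in luminal cells. These were called. Cxcl15 was above 0 in neither basal library and had 83.4 FPKM in luminal cells, and was not called. Among genes of antigen presentation, B2m, the light chain of class I molecules, had 2875 and 1858 FPKM in basal cells against 46216 FPKM in luminal cells. Its log2 difference was -4.32 with an SE of 0.32 (limma with Benjamini-Hochberg adjusted p = 0.0349). The peptide loader Tapbp was called lower with it, at 75.5 and 74.0 FPKM against 226 FPKM. The heavy chain H2-K1 had 730 and 536 FPKM against 1206 FPKM and was not called. Over the class I and class II list, 2 of 22 tested members were called lower and 0 higher (median -1.24), while both basal values were 4-fold higher in 5 and 4-fold lower in 4. The median was -0.30 after quantile normalization, with 1 member called in each direction, and -0.45 after median-of-ratios scaling, with 1 called lower.

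Of 30 tested extracellular proteases and inhibitors, 6 were called higher in basal cells and 4 lower (median 1.16). The matrix metalloproteinase Mmp2 (55.5 and 80.9 FPKM), the aggrecanase-type protease Adamts1 (53.2 and 77.7 FPKM) and the plasminogen activator Plat (97.8 and 133 FPKM) were listed at 0 in luminal cells and called higher. The membrane protease matriptase, encoded by St14, had 3.87 and 5.93 FPKM in basal cells against 113 FPKM in luminal cells, and its inhibitor Spint1 had 4.92 and 12.7 FPKM against 543 FPKM. Both were called lower, as was the second inhibitor Spint2 at 426 and 412 FPKM against 1091 FPKM. The lysosomal proteases split as well. Ctsd had 168 and 184 FPKM in basal cells against 1070 FPKM in luminal cells and was called lower, and Ctsl had 1296 and 1132 FPKM against 362 FPKM and was called higher.

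Of 14 tested genes tied to epithelial to mesenchymal transition, 4 were called higher in basal cells (Snai2, Sparc, Mmp2 and the receptor kinase Axl) and 1 lower (the integrin Itgb6), with a median of 1.48. Axl had 34.2 and 39.3 FPKM and was listed at 0 in luminal cells, and Itgb6 had 1.32 and 1.09 FPKM in basal cells against 37.8 FPKM in luminal cells. Vim, the intermediate filament of mesenchymal and basal cells, had 41.8 and 19.1 FPKM, was listed at 0 in luminal cells and was not called (limma with Benjamini-Hochberg adjusted p = 0.106). N-cadherin, encoded by Cdh2, lay the other way, at 0.351 and 0.821 FPKM in basal cells against 9.27 FPKM in luminal cells, and was not called.

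Among developmental transcription factors 5 of 50 tested members were called higher in basal cells and 3 lower, with a median of -0.37 that turns to 0.06 after quantile normalization. Besides Snai2, Sox10 and Id2, the called higher members were Nfix (56.6 and 61.3 FPKM) and Irx2 (14.2 and 11.1 FPKM), both listed at 0 in luminal cells. The called lower members were Elf3, Six4 and Grhl3. The epithelial barrier factor Grhl3 had 0 and 0.0347 FPKM in basal cells against 99.6 FPKM in luminal cells (log2 difference -6.63, SE 0.49). The homeobox gene Msx2 was above 0 in neither basal library and had 46.8 FPKM in luminal cells, and Meis1 had 0.0311 and 0.0284 FPKM against 19.9 FPKM, and neither was called. Tead1 had 18.1 and 13.9 FPKM and was listed at 0 in luminal cells, whereas its relative Tead2 had 4.72 and 4.97 FPKM in basal cells against 31.4 FPKM in luminal cells. Neither of that pair was called.

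Genes of the mitochondrial respiratory chain were on the luminal side. Of 75 oxidative phosphorylation genes 22 were called lower and 0 higher, and both basal values lay below the luminal one in 74 of the 75. Over all 10626 tested genes, both basal values lay below the luminal one in 5150. The median was -1.55, against -0.86 over the 7068 genes above 0 in all 3 libraries. After median-of-ratios scaling it was -0.76 with 4 called lower, and after quantile normalization it was -0.69 with 11 called lower. The medians over all tested genes, which include genes listed at 0 in luminal cells, were then 0.37 and 0.08. The medians of the complexes all lay below 0. The median was -1.66 over 36 subunits of complex I, -1.28 over 4 of complex II, -1.34 over 9 of complex III, -1.98 over 10 of complex IV and -1.44 over 15 of complex V. Calls fell in complexes I (9), III (3), IV (5) and V (5). Cox6b1, a subunit of cytochrome c oxidase, had 497 and 489 FPKM in basal cells against 1923 FPKM in luminal cells (log2 difference -1.96, SE 0.15). Ndufb2 of complex I had 224 and 214 FPKM against 1045 FPKM. Uqcrfs1, the Rieske protein of complex III, was close between the layers, at 109 and 102 FPKM against 114 FPKM. The gene outside the 74 was Ndufa10 of complex I, at 79.5 and 38.9 FPKM in basal cells against 78.8 FPKM in luminal cells. Many of these subunits are short transcripts, and the part of transcript length in the shift was not tested.

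Ribosomal protein genes differed less than those of the respiratory chain. Of 74 tested members 0 were called by limma, and their differences ran between -1.45 and 0.87. Their median was -0.43 as deposited and flips to 0.37 after median-of-ratios scaling and 0.40 after quantile normalization. The secretory machinery of the endoplasmic reticulum had 7 of 52 tested members called lower and 0 higher (median -1.10). After median-of-ratios scaling 0 were called in either direction and the median was -0.31. After quantile normalization 1 was called lower and 1 higher, and the median was -0.15. Sec61b, a subunit of the translocation channel, had 105 and 85.6 FPKM in basal cells against 559 FPKM in luminal cells, and the cargo receptor Tmed3 had 71.6 and 55.3 FPKM against 501 FPKM. Both were called.

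Glycolysis genes were called higher in basal cells in 3 of 21 tested members and lower in 3 (median -0.36, and 0.44 after median-of-ratios scaling). The aldolase Aldoc had 16.7 and 11.9 FPKM in basal cells against 264 FPKM in luminal cells (log2 difference -4.13, SE 0.34) and was called lower, while Aldoa had 451 and 523 FPKM against 806 FPKM and was not called. The phosphofructokinase gene Pfkl (14.6 and 13.3 FPKM against 0.0837 FPKM) and the lactate dehydrogenase gene Ldhb (92.3 and 90.9 FPKM against 23.2 FPKM) were called higher. Slc16a1, a lactate transporter, had 21.5 and 26.6 FPKM, was listed at 0 in luminal cells and was called higher. Gapdh had 796 and 655 FPKM in basal cells and 695 FPKM in luminal cells, values that overlap.

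Lipid synthesis had 1 of 29 tested members called higher in basal cells (the sterol enzyme Sqle) and 2 lower, with a median of -1.08. Both counts are near the shares of all tested genes, 3.23% higher and 5.08% lower. After quantile normalization and after median-of-ratios scaling 0 members were called by limma, and the medians were -0.38 and -0.30. Acly, which makes cytosolic acetyl-CoA, had 2.96 and 3.47 FPKM in basal cells against 40.5 FPKM in luminal cells, and the desaturase Fads2 had 2.55 and 2.70 FPKM against 27.3 FPKM. Both were called lower. Sqle had 12.0 and 17.0 FPKM in basal cells against 0.116 FPKM in luminal cells. Fasn, the fatty acid synthase, was low throughout, at 3.79 and 3.34 FPKM against 9.90 FPKM, and was not called.

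Redox genes were called lower in 7 of 40 tested members and higher in 2 (median -0.80, and 0.16 after quantile normalization). The peroxiredoxins, which remove peroxides, made up 4 of the 7. Prdx2 had 136 and 127 FPKM in basal cells against 1181 FPKM in luminal cells (log2 difference -3.16, SE 0.23), and mitochondrial Prdx3 had 9.45 and 8.15 FPKM against 226 FPKM. Prdx5 and Prdx6 were called lower as well, whereas Prdx1 (610 and 491 FPKM against 1003 FPKM) and Prdx4 (92.8 and 45.2 FPKM against 39.7 FPKM) were not called. The called higher members were Hmox1, which degrades heme, at 952 and 832 FPKM against 158 FPKM, and the aldehyde dehydrogenase gene Aldh2, at 78.4 and 51.2 FPKM with luminal listed at 0.

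Solute carriers had 4 of 31 tested members called higher in basal cells and 3 lower (median -0.27, and 0.37 after median-of-ratios scaling). Amino acid carriers made up 3 of the 4 higher calls, while Slc7a2 and Slc38a3, of the same kind, were 4-fold lower without a call. Slc3a2 had 306 and 325 FPKM in basal cells against 108 FPKM in luminal cells, its partner Slc7a5 had 20.0 and 19.8 FPKM against 0.0624 FPKM, and the glutamine carrier Slc1a5 had 30.3 and 25.1 FPKM with luminal listed at 0. All 3 were called. The called lower members were Slc44a4, the zinc exporter Slc30a2 and Slc9a3r1, whose product anchors apical proteins and is not itself a carrier. Slc30a2, needed for zinc in milk, was above 0 in neither basal library and had 12.3 FPKM in luminal cells. Slc44a4, a choline transporter family member, was listed at 0 in both basal libraries as well and had 255 FPKM in luminal cells.

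Proliferation genes gave 1 call among 25 tested members, the mitotic kinase Aurka, which was lower at 0.0577 and 0.0528 FPKM in basal cells against 13.6 FPKM in luminal cells (median -0.21, and 0.50 after median-of-ratios scaling). The 1 call in 25 is a share near the 5.08% of all tested genes called lower. Pcna had 130 and 101 FPKM in basal cells against 160 FPKM in luminal cells and was not called. Of 24 tested interferon response genes, 1 was called lower (Oas2, listed at 0 in both basal libraries and at 11.3 FPKM in luminal cells) and 0 higher, with a median of 0.42 that falls to -0.12 without Basal replicate 1. That count too is near the share of all tested genes. Ifitm3 had 3884 and 3523 FPKM in basal cells against 675 FPKM in luminal cells and was not called.

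Immediate early and stress genes, which can respond to tissue dissociation, had 1 of 30 members called higher in basal cells and 4 lower (median -0.69, and 0.10 after median-of-ratios scaling). Fos had 700 and 775 FPKM in basal cells against 1675 FPKM in luminal cells and was not called. The lower calls were Klf6, Hspa1a, Gadd45a and Cyr61, and the higher call was Fosl2. Hspa1a had 5.96 and 4.61 FPKM in basal cells against 70.1 FPKM in luminal cells, and it is uncertain because its near-identical copy Hspa1b may share reads.

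Markers of other cells were measured in the same libraries. The fibroblast list had 10 of 14 members in the table and summed to 507 and 480 FPKM in basal cells against 305 FPKM in luminal cells. Dcn supplied most of that sum, at 275 and 268 FPKM in basal cells against 305 FPKM in luminal cells, and Postn had 210 and 199 FPKM with luminal listed at 0. The collagen genes Col1a2 and Col3a1 were below 3 FPKM throughout and at 0 in the luminal library. The pericyte list, which bears on contractile genes because vascular mural cells share them, had 7 of 11 members in the table and summed to 42.9 and 33.3 FPKM in basal cells against 14.4 FPKM in luminal cells. Its defining gene Pdgfrb had 0.150 and 0.0171 FPKM in basal cells and was at 0 in luminal cells, and Rgs5 had 20.8 and 16.1 FPKM with luminal at 0.

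Basal replicates 1 and 2 differed in endothelial markers. The endothelial list had 10 of 13 members in the table and summed to 193 and 7.64 FPKM in basal cells against 26.9 FPKM in luminal cells, led by Cldn5 at 110 and 0 FPKM, with luminal at 0. The adipocyte list had 2 of 10 members, which differed between the basal libraries in opposite ways. Fabp4 had 473 and 0 FPKM and Pparg 0 and 3.10 FPKM in Basal replicates 1 and 2, and both were at 0 in luminal cells. The Schwann cell list, with 5 of 8 members, summed to 152 and 124 FPKM in basal cells against 14.7 FPKM in luminal cells, and its member Cnp was called higher. The immune list, with 8 of 19 members, summed to 24.3 and 8.07 FPKM in basal cells against 33.1 FPKM in luminal cells, where Cd68 supplied the whole sum. The erythroid list had 1 of 9 members as a separate entry, Alas2 (0.708 and 2.03 FPKM against 26.5 FPKM), and the joined alpha globin entry Hba-a1Hba-a2 had 0 and 1.88 FPKM in basal cells against 1249 FPKM in luminal cells. The part of these cells in the differences between the layers was not tested.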

How the data were processed

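RNA was measured in 5 libraries of sorted mouse mammary cells, of which the 2 basal libraries and the 1 luminal library are compared. The submitters' processing notes name mm10 and the tools Cuffdiff 2.0.2, Cufflinks 2.0.2 and TopHat2 2.0.4; no annotation is named in the labels. The authors deposited log2(FPKM + 1) per gene and library, which is the unit of the table. The base was tested: under base 2, 99.69% to 99.78% of the values in a library return an FPKM of 6 significant digits, within 0.02 of the last digit. Of 12311 table entries, 18 with names turned into dates were left out and 12293 were used. Depth is unknown, since FPKM values did not return whole reads, so no counting interval is given. No label says whether strand was used, so antisense, overlapping and near-identical genes are uncertain.

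Limma 3.58.1 (R 4.3.3) with an intensity trend was run on all 5 libraries with a mean per group. Values were log2(FPKM + 1), thus with a pseudocount of 1. The filter kept 10626 genes that average at least 1 FPKM over all 5 libraries. LdBC values alone can therefore keep a gene, as with Kit, and such genes count in the shares and list medians. The fit left 2 residual degrees of freedom, plus 1.65 from the prior. Tests were two-sided, with Benjamini-Hochberg adjustment. The fit was also run on simulated data. There the luminal library was drawn with the same spread as the pairs, so that assumption was not checked. Tables and figures were made with Python 3.11.15, pandas 2.3.3 and matplotlib 3.10.9.

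Named genes are, per direction, the 12 with the largest smaller difference of the 2 basal libraries among genes above 0 in all 3 libraries and at 20 FPKM or more in the higher group; the 6 highest per layer listed at 0 in the other; per list (36 in all), up to 6 members of highest level, up to 6 most different in each direction and the first 6; the sorted proteins; and any limma call. Outside it, Oxtr, Srf, Mkl1, Col4a2, Gata3, Tjp1, Inhba, Tead1, Tead2, Uqcrfs1, Prdx4 and the joined alpha globin entry were chosen after their values were seen. A few named genes are not reported here. The comparison and lists were chosen with earlier results of these data known. Alternatives were pseudocounts of 0.1 and 5, no filter, a mean FPKM of 5, quantile normalization, median-of-ratios scaling, limma without trend, fewer libraries and a replicate block. Promoters come from RefSeq (GRCm38.p6) and gene positions from GENCODE on GRCm38.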

Additional observations from a re-analysis of the deposited data

How the results depend on the processing

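The calls rest on the spread of 2 pairs of libraries, and no luminal replicate enters it. Limma with Benjamini-Hochberg adjustment called 343 genes higher in basal cells and 540 lower. Leaving out any basal or LdBC replicate gave 0 calls in either direction, and so did the fit on only the basal and luminal libraries (0 higher, 0 lower). At an unadjusted p under 0.05, limma gave 4049 genes with all libraries, 2284 and 2245 without Basal replicates 1 and 2, 4871 and 4887 without LdBC replicates 1 and 2, and 4892 with only the basal and luminal libraries. These fits have 1 residual degree of freedom. Basal and LdBC libraries share replicate numbers, and the differences between replicates of the 2 pairs correlated at 0.0115 over genes. The labels do not say whether a shared number stands for a shared animal. The correlation cannot decide this, since each group has a single pair. A fit with the replicate block, in which the luminal library stands at the mean of both numbers, gave 0 calls higher and 0 lower in limma, with 3284 genes at an unadjusted p under 0.05.

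Higher and lower calls were 1101 and 725 with a pseudocount of 0.1, 246 and 876 with 5, 202 and 286 without the filter, 682 and 939 with a mean FPKM of 5, 428 and 359 after quantile normalization, 352 and 218 after median-of-ratios scaling, and 363 and 325 without the trend. Of 787 calls after quantile normalization 596 were shared with the deposited scale, and of 570 after median-of-ratios scaling 512 were. Genes 4-fold higher and lower numbered 2992 and 1984 with a pseudocount of 0.1, 391 and 1058 with 5, and 2043 and 998 after median-of-ratios scaling. Without a basal replicate they ranged between 2167 and 2300 higher and between 2146 and 2292 lower. The cause of these shifts was not tested. Of 594 differences of 75 named genes under alternatives, 401 stayed within the spread of the basal libraries. Part of that count was fixed in advance, since neither filter nor leaving out 1 basal replicate can move a difference beyond this spread. Differences of called genes kept their sign. Of uncalled genes, the Cdh1 difference of -0.32 became 0.60 after quantile normalization and 0.45 after median-of-ratios scaling. The casein differences turned when 1 basal replicate was left out: Csn1s1 was -1.54 with both and 1.79 without replicate 2, and Csn2 was 0.29 with both and -2.63 without replicate 1. Of 288 list medians, 19 in 10 lists changed sign; these lists are Notch, interferon, immediate early, glycolysis, ribosomal, redox, solute carriers, proliferation, developmental factors and endothelial markers.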
